A study of Mus musculus with 2 samples.

Results

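The miR-29 family in mouse is encoded by 4 genes, Mir29a, Mir29b-1, Mir29b-2 and Mir29c, and all 4 were counted among the 2202 microRNA (miRNA) genes of the deposited tables. The members were found by their GENCODE M21 gene names, a rule that uses no measured value, though the family was picked for description with earlier results of these data known. Small RNA (labelled as under 30 nt) from cerebral cortex was sequenced in 2 libraries that form a single group and are numbered in the labels as biological replicate 1 and 2. The mice are labelled as wild-type female controls of strain B6NCrl, while age is given as not collected, as is the separate entry for sex. Both libraries cite the same donor record and a different adapter-trimming document each, so separate animals are not stated and the spread between the libraries may be technical. There was no treatment or genotype to compare, and the questions were how the family's genes rank in cortex, how they stand to each other within and between their loci, and how far the libraries differ in them.

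A miRNA is cut from a hairpin precursor and guides Argonaute to messenger RNAs, mainly by pairing of its seed, bases 2 to 8, with a matching site. In brain, miR-29 is known to rise strongly as neurons and glia mature after birth and to be abundant in astrocytes. Its known targets include the DNA methyltransferase gene Dnmt3a, pro-apoptotic BH3-only genes in neurons, and collagen genes in fibroblasts. No messenger RNA was measured here, so none of these targets was examined.

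The mature sequences show what a read can and cannot tell apart. All 4 genes matched RefSeq (GRCm38.p6), and the RefSeq hairpins had the same coordinates and letters as the GENCODE precursors. The 3p miRNAs, which are the main products of this family, are shown first because the members share their seed, in capitals.
miR-29a-3p: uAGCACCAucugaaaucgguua
miR-29b-3p: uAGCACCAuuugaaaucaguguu
miR-29c-3p: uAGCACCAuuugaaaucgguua
The 5p miRNAs, with their seeds in capitals, are shown because those of the miR-29b genes differ between the loci.
miR-29a-5p: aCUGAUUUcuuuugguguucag
miR-29b-1-5p: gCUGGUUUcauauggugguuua
miR-29b-2-5p: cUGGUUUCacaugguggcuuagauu
miR-29c-5p: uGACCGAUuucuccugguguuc

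The seed AGCACCA was found in no mature miRNA of another gene among the 1738 RefSeq mature entries searched, so these 4 genes are the whole seed family in that table. The 5p seeds all differ, so no 2 members share one; the miR-29b 5p seeds are offset by a base, as miR-29b-1-5p starts earlier in its arm. Counted from 1 at the 5′ end, miR-29a-3p and miR-29c-3p differ by a single substitution, C10U. From miR-29c-3p to miR-29b-3p there are 3 substitutions over the first 22 bases, G18A, U21G and A22U. The miR-29b-3p sequence is identical in Mir29b-1 and Mir29b-2.

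The precursors of the chromosome 6 locus are shown to place these arms, with both annotated mature miRNAs in capitals, the 5p arm before the 3p arm.
Mir29a: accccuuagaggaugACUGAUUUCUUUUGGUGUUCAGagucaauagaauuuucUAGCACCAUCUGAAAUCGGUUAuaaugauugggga
Mir29b-1: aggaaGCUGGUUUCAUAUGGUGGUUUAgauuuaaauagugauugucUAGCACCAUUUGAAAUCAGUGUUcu

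Mir29a (chromosome 6, 31062660 to 31062747, minus strand, mm10) and Mir29b-1 (31063023 to 31063093, minus strand) lie 275 nt apart. Mir29a overlaps no other annotated gene, and Mir29b-1 overlaps the long noncoding RNA gene Gm27019 by 2 nt of an exon on its own strand. Mir29b-2 (chromosome 1, 195037040 to 195037120, plus strand) and Mir29c (195037547 to 195037634, plus strand) lie 426 nt apart. Both are in an exon of the noncoding transcript A330023F24Rik on the same strand and, on the opposite strand, in an untranslated exon part of Cd46, which encodes a complement regulatory protein. No other annotated miRNA gene lay within 10 kb of either pair.

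How many bases of a read are needed to assign it to 1 precursor differed between the members. Searched against all annotated precursors of the tables, the first 10 bases of miR-29a-3p were found in Mir29a alone, whereas miR-29c-3p needed its first 18. The first 17 bases of miR-29b-3p were found in 3 precursors and its full 23 bases still in 2. The longest run that the Mir29b-1 and Mir29b-2 precursors share is 25 nt and holds the whole miR-29b-3p.
Shared run of Mir29b-1 and Mir29b-2: ucuagcaccauuugaaaucaguguu
The 5p miRNAs were unique earlier, after 11 bases for miR-29b-1-5p and 10 for miR-29b-2-5p. A mature miR-29b-3p read that ends within the shared run thus has at least 2 places in the genome. The tables count no read placed at several loci in a gene, so the counts of Mir29b-1 and Mir29b-2 are not the level of miR-29b, and whether they come from 5p or from longer 3p reads is not given in a table per gene.

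**Figure D1:**
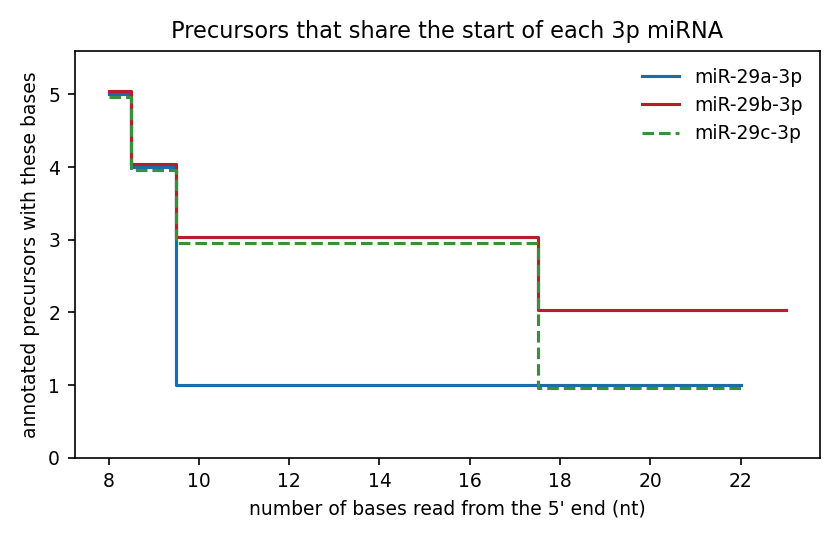
Number of annotated precursors that hold the first bases of each 3p miRNA (y axis) against the number of bases taken from the 5′ end (x axis, nt); lines are offset slightly so that each can be seen. The line of miR-29a-3p reaches 1 precursor at 10 bases and that of miR-29c-3p at 18, while that of miR-29b-3p stays at 2 over its full length.

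Sense counts in miRNA genes were 4429633 in replicate 1 and 6985784 in replicate 2, and levels are given as CPM, the count of a gene scaled to a library total of 1000000. Reads placed at several loci, which are in no gene, made up 43.9% of all reads in replicate 1 and 47.9% in replicate 2. Neuronal marker miRNAs summed to 63486 CPM in replicate 1 and 82814 CPM in replicate 2. Of these, 11 of 15 were detected (at least 2 CPM in replicate 1 and in replicate 2). Mir132 held most of the sum, with a mean of 52078 CPM. Mir124a-1, Mir124a-2, Mir124a-3 and Mir9-2 were not detected, with means of 1.94 CPM or less. Reads that fit more than 1 numbered copy are in no gene. These counts and the neuronal sum thus do not give the levels of the mature miRNAs. Oligodendrocyte markers summed to 7110 and 7851 CPM, while 4 of 5 muscle markers (Mir1a-1, Mir1a-2, Mir133a-1 and Mir133a-2) had no count. The other muscle marker, Mir206, was detected with a mean of 24.7 CPM. The 4 without a count are numbered copies as well, so their lack of counts does not show that the mature miRNAs were absent. The libraries stand apart in epithelial miRNAs, which summed to 12838 CPM in replicate 1 and 2060 CPM in replicate 2 over 7 genes. Of these, only Mir203 was lower in replicate 1, with a mean of 57.4 CPM. They also stand apart in choroid plexus and ependymal miRNAs, which summed to 1173 and 2471 CPM over 5 genes. Intervals below cover the counting error of reads only. The tables hold no molecular identifiers, so reads copied from the same molecule cannot be told apart and would make these intervals too narrow.

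All 4 members were detected in both libraries, against 438 of all 2202 genes (19.9%). Mir29a was counted 52275 times in replicate 1 and 113351 times in replicate 2. That is 11801 CPM (95% Wilson interval 11701 to 11902) in replicate 1 and 16226 CPM (16133 to 16320) in replicate 2, and 14014 ± 3129 CPM on average (SD, n = 2). It ranked 22nd in replicate 1, 13th in replicate 2 and 18th by mean CPM, which places it among the 21 genes with a mean of 10000 CPM or more. Mir29c, from the other locus, was counted 2283 times in replicate 1 and 5028 times in replicate 2. It stood at 515 CPM (495 to 537) in replicate 1 and 720 CPM (700.1 to 739.9) in replicate 2, with a mean of 618 ± 145 CPM and rank 117.

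The numbered copies were far lower. Mir29b-2 was counted 356 times in replicate 1 and 733 times in replicate 2, which is 80.4 CPM (72.4 to 89.2) and 105 CPM (97.6 to 113), with a mean of 92.6 ± 17.4 CPM and rank 201. Mir29b-1 was counted 178 times in replicate 1 and 335 times in replicate 2, which is 40.2 CPM (34.7 to 46.5) and 48.0 CPM (43.1 to 53.4), with a mean of 44.1 ± 5.49 CPM and rank 234. Mir29b-1 alone of the members lay below 57.8 CPM, the median of the detected genes. The order was Mir29a, Mir29c, Mir29b-2, Mir29b-1, and no neighbours in it overlapped in their values over the 2 libraries.

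A mature miRNA gives a read of the same kind whatever the length of its precursor, but the order was also taken per 100 nt of annotated precursor. Mir29a (88 nt) then had 15925 CPM per 100 nt, Mir29c (88 nt) 702, Mir29b-2 (81 nt) 114 and Mir29b-1 (71 nt) 62.1. The order was the same. No read was counted on the opposite strand of any member in either library, and the unstranded column held the same counts for them. Antisense reads from the Cd46 strand were thus not detectable at Mir29b-2 and Mir29c, where 3 counts would have been 0.677 CPM in replicate 1 and 0.429 CPM in replicate 2.

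**Figure D2:**
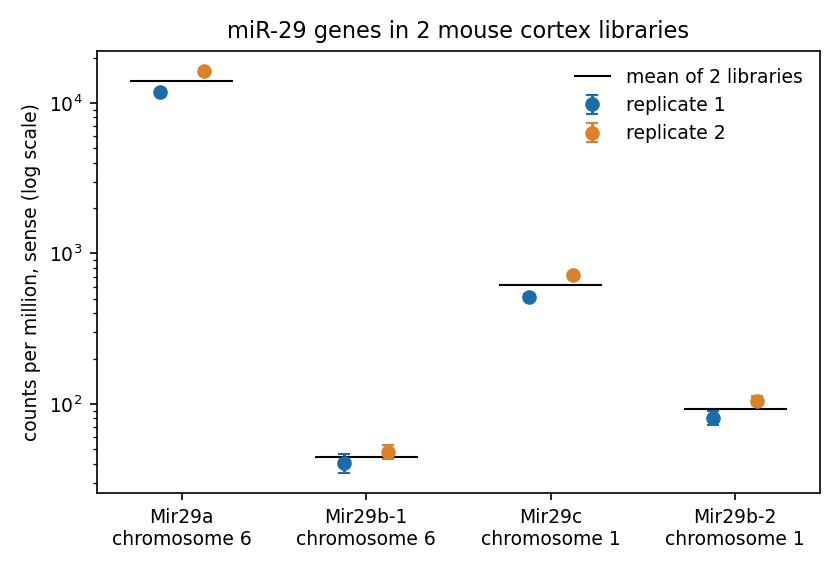
Sense CPM (log scale) of the 4 miR-29 genes in replicate 1 and replicate 2, with 95% Wilson intervals as bars (smaller than the points for Mir29a and Mir29c) and the mean of both libraries as a line. Replicate 2 is above replicate 1 at every gene, and the means run from 14014 CPM for Mir29a to 44.1 CPM for Mir29b-1.

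**Figure D3:**
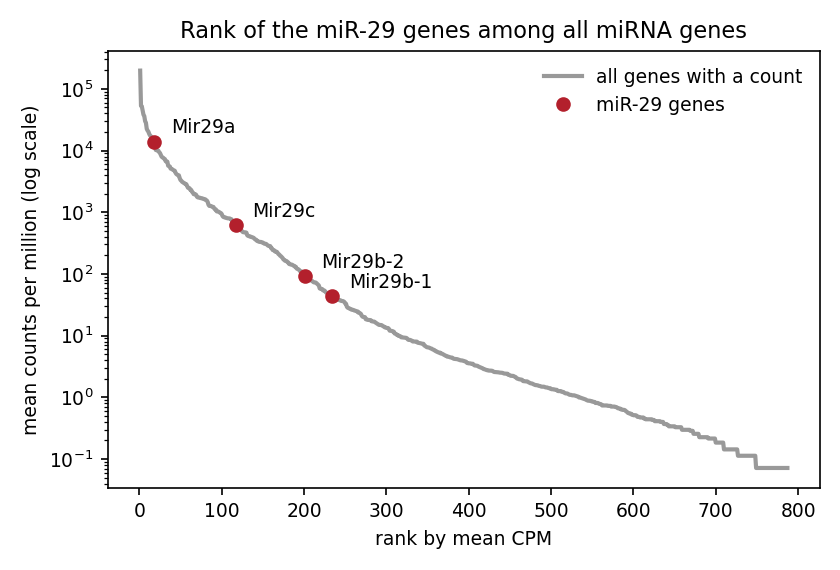
Mean CPM (log scale) of all genes with a count against their rank, with the miR-29 genes as points. Mir29a lies at rank 18 on the steep start of the curve, Mir29c at 117, Mir29b-2 at 201 and Mir29b-1 at 234.

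Together the family held 1.24% of the sense counts of replicate 1 (1.23 to 1.25) and 1.71% of those of replicate 2 (1.70 to 1.72), a mean of 1.48% ± 0.330 (SD, n = 2). Within the family, Mir29a made up 94.9% in either library (94.7 to 95.1 in replicate 1 and 94.8 to 95.02 in replicate 2). Mir29c made up 4.14% in replicate 1 and 4.21% in replicate 2, Mir29b-2 0.646% and 0.614%, and Mir29b-1 0.323% and 0.280%. The Wilson intervals of all 4 shares overlapped between the libraries. The chromosome 6 locus thus held 95.2% of the family's uniquely placed counts in both libraries, and the chromosome 1 locus 4.79% in replicate 1 and 4.82% in replicate 2. Since miR-29b-3p reads that fit both loci are missing, these are shares of the counted reads and not of all miR-29.

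Members were then compared within each library, where library size does not enter. These ratios were not tested, since an exact two-sided permutation of signs over 2 libraries cannot go below p = 0.5, and they are given with their SD. The log2 ratio of Mir29a over Mir29c was 4.52 in replicate 1 and 4.49 in replicate 2 (4.51 ± 0.016, n = 2), which is 22.9 and 22.5 times. Both precursors are 88 nt long, so the ratio is the same per length. A miR-29a-3p read is unique among precursors after 10 bases and a miR-29c-3p read after 18. Shorter miR-29c-3p reads may thus be missing, and their part in the ratio was not tested. This ratio between the loci moved by 0.022 between the libraries on the log2 scale, less than the counting interval of either library (4.46 to 4.58 in replicate 1).

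Within the chromosome 6 locus, the log2 ratio of Mir29a over Mir29b-1 was 8.19 in replicate 1 and 8.40 in replicate 2 (8.30 ± 0.146), or 293 and 338 times. Per length of precursor its mean was 7.99. Within the chromosome 1 locus, Mir29c over Mir29b-2 was 2.68 and 2.78 (2.73 ± 0.069), or 6.41 and 6.86 times, and 2.61 per length. Members of 1 locus are thought to be cut from a shared primary transcript. The counted ratio within a locus was larger on chromosome 6 than on chromosome 1 in both libraries. Reads of miR-29b-3p that fit both loci are missing from the denominators of these ratios, so the ratios do not compare mature miRNAs. The part of the missing miR-29b-3p reads in these ratios was not tested.

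The log2 ratio of Mir29b-1 over Mir29b-2 was -0.998 in replicate 1 (exact interval -1.27 to -0.74) and -1.13 in replicate 2 (-1.32 to -0.94), with a mean of -1.06 ± 0.092. Mir29b-1 was thus the lower copy in both libraries, at 0.501 and 0.457 of the counts of Mir29b-2, and per length the mean was -0.87. Among the 52 gene pairs named only by the copy numbers 1 and 2, 23 had at least 1 copy detected. On the scale of log2(mean CPM + 1), Mir29b had a gap of -1.06, which is the 7th smallest of the 23 in size, against a median size of 2.13 and a range of 0.130 (Mir138) to 8.73 (Mir219a). The higher copy was the same in both libraries for 20 of the 23 pairs, Mir29b among them. With 137 CPM over both copies, Mir29b ranked 16th of the 23 pairs in summed level, whose median was 311 CPM. These gaps and sums hold uniquely placed reads only. Reads that fit both copies of a pair are missing, so the ranks do not describe the levels of the mature miRNAs.

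**Figure D4:**
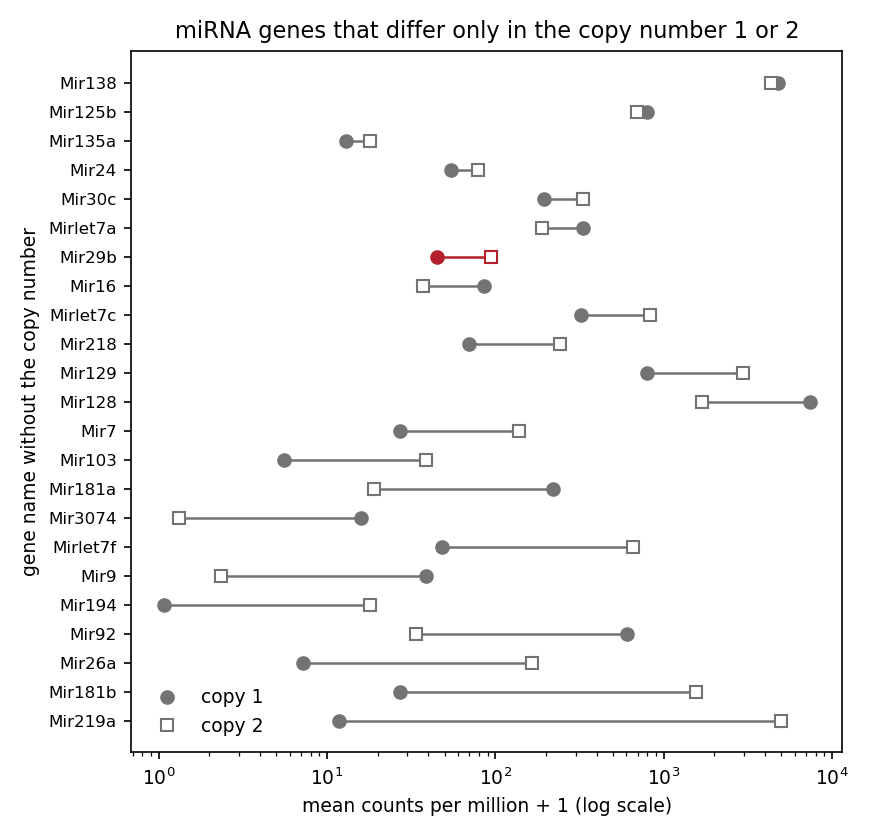
Mean CPM + 1 (log scale) of copy 1 (filled circles) and copy 2 (open squares) for the 23 pairs of numbered copies with a copy detected, sorted by the size of the gap, smallest at the top. The Mir29b pair (red) lies 7th, with Mir29b-2 above Mir29b-1.

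The clusters of Mir23, Mir27 and Mir24 have the same layout, with lettered genes and a numbered copy at each of 2 loci, Mir24-2 beside Mir23a and Mir27a on chromosome 8 and Mir24-1 beside Mir23b and Mir27b on chromosome 13. Among these listed genes, the numbered copy was the lowest of its locus there too. Reads placed at several loci are in no gene here either, and their part in the levels of the numbered copies was not tested. Mir24-2 stood at 77.8 ± 11.3 CPM and Mir24-1 at 53.5 ± 38.7 CPM, against 10194 ± 3226 CPM for Mir23a and 22443 ± 1559 CPM for Mir23b. Both Mir24 copies overlap a Mir3074 gene on the opposite strand and have 0 counts in the unstranded column, so their levels rest on the sense column alone. The within-locus log2 ratios moved between the libraries by 0.206 for Mir29a over Mir29b-1 and 0.098 for Mir29c over Mir29b-2. In the Mir23 clusters they moved by 0.360 for Mir23a over Mir24-2, 0.944 for Mir27a over Mir24-2, 1.48 for Mir23b over Mir24-1 and 1.26 for Mir27b over Mir24-1. Both ratios over Mir24-1 share a denominator counted 116 times in replicate 1 (26.2 CPM) and 565 times in replicate 2 (80.9 CPM). This difference between the families was not tested.

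The libraries were compared gene by gene with an exact two-sided binomial test on the counts, given library sizes scaled by TMM (trimmed mean of M-values, edgeR), with Benjamini-Hochberg adjustment over the 438 detected genes. It compares 2 libraries of 1 group, not conditions. Calls needed both an adjusted p below 0.05 and a ratio that reached 2, and log2 ratios are replicate 1 over replicate 2. No member was called, while 79 of 438 genes were (18.0%), 41 lower (9.36%) and 38 higher (8.68%) in replicate 1. Scaled by totals and not by TMM, 29 were lower and 55 higher, and the median log2 ratio over all detected genes stood at 0.16, against 0.03 by TMM. At a ratio of 1.5, 1 of 4 members was called (Mir29c), against 39.0% of detected genes, 18.3% being lower in replicate 1.

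All 4 members were lower in replicate 1, by less than the ratio of 2. The log2 ratio was -0.58 for Mir29a (exact interval -0.60 to -0.57), -0.61 for Mir29c (-0.68 to -0.54), -0.51 for Mir29b-2 (-0.70 to -0.33) and -0.38 for Mir29b-1 (-0.65 to -0.11). In linear terms Mir29c was 1.52 times, Mir29b-2 1.42 times and Mir29b-1 1.30 times higher in replicate 2, and Mir29a just under 1.5 times, with the interval of Mir29b-1 wide on its 178 and 335 counts. Below an adjusted p of 0.05, whatever the ratio, 4 of 4 members passed (binomial test; adjusted p = 0.00791 for Mir29b-1, 6.33e-08 for Mir29b-2, 1.41e-64 for Mir29c and too small to represent for Mir29a). Scaled by library totals, 3 of 4 passed, without Mir29b-1 (log2 ratio -0.25, adjusted p = 0.0837, exact binomial test). With TMM, 63.9% of the detected genes passed, and 32.0% passed toward replicate 2, so passing counting error sets a gene little apart here. The size of the ratio of Mir29a exceeded that of 56.6% of detected genes and that of Mir29b-1 exceeded 41.1%.

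**Figure D5:**
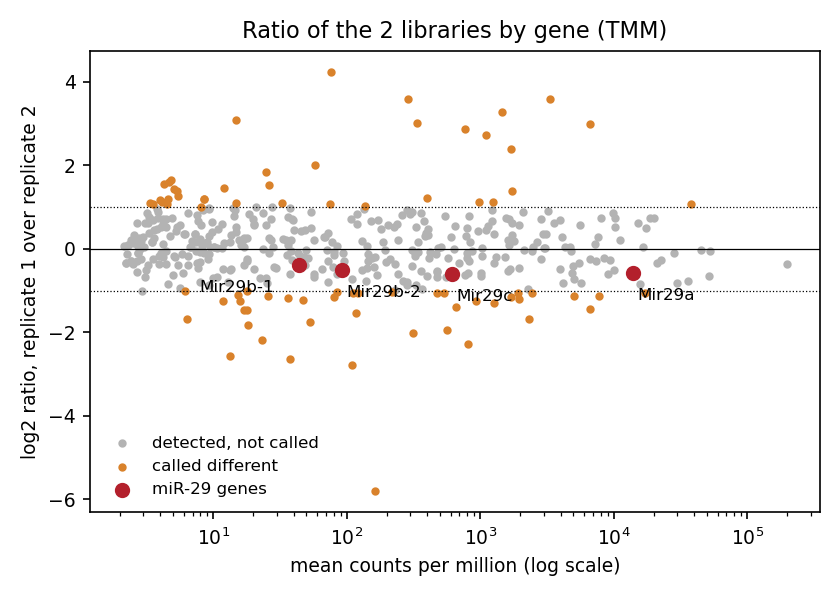
Log2 ratio of replicate 1 over replicate 2 (TMM) against mean CPM (log scale) for the 438 detected genes, with genes called different in orange, the other genes in grey and the miR-29 genes in red; dotted lines mark a ratio of 2. The miR-29 genes lie between -0.61 and -0.38, inside the dotted lines; without the trend on base composition the ratio of Mir29b-1 is 0.24.

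Base composition moved with these ratios. The precursors of the members held 38.6% (Mir29a), 44.3% (Mir29c), 39.5% (Mir29b-2) and 35.2% (Mir29b-1) G and C, against a median of 53.2% over the detected genes. Of the 69 other detected genes with 35.2% to 44.3%, 52 were lower in replicate 1, with a median log2 ratio of -0.43. Of the 356 with more, 148 were lower, with a median of 0.15, and of the 9 with less, 5 were lower, with a median of -0.29. With the linear trend on G and C content removed, the log2 ratio was -0.08 for Mir29a, -0.30 for Mir29c and -0.04 for Mir29b-2, and that of Mir29b-1 turned to 0.24. Only Mir29a and Mir29c then remained past counting error. The sums of epithelial and choroid plexus markers given above differ between the same libraries, and their part in the ratios of the members was not tested. In bulk tissue, fewer cells of a type and less RNA per cell cannot be told apart.

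The genes nearest to each member in level were found by the Euclidean distance of log2(CPM + 1) over the 2 libraries. For Mir29a they were Mir30d (distance 0.276, 15810 ± 5418 CPM), Mir22 (0.461) and Mir125a (0.562). For Mir29c they were Mir146 (0.234, 555 ± 149 CPM), a feedback regulator of innate immune signalling, Mir532 (0.299) and Mir125b-2 (0.310). For Mir29b-2 they were Mir322 (0.179, 95.7 ± 7.35 CPM), Mir30b (0.210) and Mir6540 (0.289), and for Mir29b-1 Mir20a (0.154, 44.9 ± 0.901 CPM), Mir493 (0.196) and Mir8114 (0.205). Over 2 libraries this describes levels only. No member was among the 3 nearest genes of another.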

How the data were processed

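Small RNA from 1 group of 2 mouse cortex libraries was analysed. The authors deposited 1 table of raw counts per library, with reads per annotated miRNA gene for either strand and for each strand. The build is mm10 per the labels, with the M21 annotation per the deposited readme. Which aligner and counter were used is not given in the sources here. Each table opens with 4 summary lines that name no gene; they entered neither totals nor tests (in the sense column, replicate 1 and replicate 2 held 17.0% and 11.1% unmapped reads, 43.9% and 47.9% placed at several loci, and 3.67% and 2.81% outside genes). As sense, the strand column of larger sum was used.

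Counts were scaled to CPM of all gene rows. Genes at 2 CPM or more in both libraries were called detected and entered TMM (edgeR 4.0.16, R 4.3.3) and the exact binomial test (scipy 1.17.1), with 0.5 counts added for log2 ratios. This test was checked on simulated counts that held counting error only. The check thus does not cover further spread between the libraries. With 1 group of 2 libraries, edgeR's test between groups could not be used. Floors are 3 counts, and intervals are 95% (Wilson, or exact for ratios). Precursors were taken from GENCODE M21 and mature sequences from RefSeq (GRCm38.p6). Since no genome was used, uniqueness was searched over annotated precursors only. Genes were named by rule: the members, the 3 nearest in level to each, and the genes of 2 lists. Cell type markers came from further lists. Those of microglia and leukocytes, endothelial and mural cells, red blood cells and liver are not reported here. Other genes were named as the ends of a range, for an overlap or for a shared sequence. The members and lists were chosen with earlier results of these data known. Alternatives covered the normalization (DESeq2 1.42.0 size factors, library totals), filters, column, depth, base composition, ratio limit, length, denominator and each library alone.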

Additional observations from a re-analysis of the deposited data

How the results depend on the processing

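Per 100 nt of precursor, the log2 ratio moved to 7.99 for Mir29a over Mir29b-1, 2.61 for Mir29c over Mir29b-2 and -0.87 for Mir29b-1 over Mir29b-2, all in the same direction; the difference in precursor length makes this change. At a ratio limit of 1.5 in place of 2, 1 member (Mir29c) was called between the libraries, and 171 genes in all in place of 79. At 10 CPM in both libraries, 51 genes were called of 294 tested, none a member. With the G and C trend removed, the log2 ratio between the libraries shrank to -0.08 for Mir29a (from -0.58), -0.30 for Mir29c (from -0.61) and -0.04 for Mir29b-2 (from -0.51; adjusted p = 0.752, exact binomial test), and that of Mir29b-1 turned to 0.24 (adjusted p = 0.117, exact binomial test), against -0.46 to -0.25 under the planned scalings, thinning and unstranded column and -0.48 with TMM from all genes with a count, an alternative chosen after seeing the data. No member was called at a ratio of 2 in any setting run. With library totals Mir29b-1 also lost its adjusted p (0.0837, log2 ratio -0.25), while the other members passed.

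The values of each library alone, which with 2 libraries lie on either side of the mean by construction, ran from 11801 to 16226 CPM for Mir29a, 515 to 720 CPM for Mir29c, 80.4 to 105 CPM for Mir29b-2 and 40.2 to 48.0 CPM for Mir29b-1. No paired analysis was possible because there is 1 group. Depth limits Mir29b-1 most, at 178 and 335 counts.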

Other observations

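The last 6 bases of miR-29b-3p, AGUGUU, are known from cultured human and mouse cells as a sequence that directs miR-29b to the nucleus, and miR-29a and miR-29c lack them. Of 1738 RefSeq mature entries, 3 ended in these bases, those of Mir29b-1 and Mir29b-2 and one of Mir92b. The counts here cannot show where in the cell a miRNA was, and they hold few reads of the miR-29b genes.

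Of the 1018 counted genes with a RefSeq mature sequence, 114 had at least 1 mature sequence that also lies in another annotated precursor, as Mir29b-1 and Mir29b-2 do, and 904 had none, as Mir29a and Mir29c. In the first class 47 genes (41.2%) were detected, with a median of 84.9 CPM, and in the second 348 (38.5%), with a median of 71.9 CPM. Mir29b-2 lay above and Mir29b-1 below the median of its class. These classes were not tested against each other.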
